A study of Mus musculus with 9 samples.

Results

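The liver RNA of 6 mice in which glucagon signalling was interrupted in either of 2 ways was compared, as 1 arm, with that of 3 wild-type mice. All 9 libraries of the series entered the comparison. The wild-type arm was PBS-treated Gcgr+/+ mice. The interrupted arm was made of 3 mice labelled PBS-treated Gcgr-/- (knockout-labelled here) and 3 labelled mAb-treated Gcgr+/+ (antibody-labelled here). The antibody, monoclonal, humanized and directed against the glucagon receptor, was given at 10 mg/kg into the peritoneum once a week over 10 days, and the other 2 groups received PBS on that schedule. All mice were adult C57Bl6 males of 16 to 20 weeks, fasted for 6 h, and each library came from a liver punch of about 100 mg. The labels give nothing more about the Gcgr-/- allele, such as which exons it lacks. The pooled value of a gene was the mean of the 2 interrupted group means minus the wild-type mean of log2(normalized count + 1), so it is the same number if the labels of the 2 interrupted groups are exchanged.

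Glucagon is released by pancreatic alpha cells and binds a receptor, encoded by Gcgr, that is abundant on hepatocytes. The receptor couples through Gs to adenylyl cyclase, and the cAMP formed activates protein kinase A and the transcription factor CREB, which binds cAMP response elements in promoters. In hepatocytes the hormone drives glucose output, the uptake and breakdown of amino acids and ureagenesis. When the signal is lost, circulating amino acids rise and alpha cells multiply, and the study set out to find liver genes that could belong to this liver to alpha cell axis.

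Gcgr itself (chr11:120392013-120400402, plus strand, in the mm9 coordinates of the table) was read first, because it bears on the labels. It stood at 19547, 17565 and 18450.5 normalized counts in wild-type libraries 1 to 3, 27365, 19656 and 21128 in the knockout-labelled libraries and 2271, 2496 and 1808 in the antibody-labelled libraries. Low receptor transcript was thus found under the antibody label. The 3 knockout-labelled libraries all lay above wild type, so no loss of Gcgr reads was seen under the knockout label. A value per gene does not show which exons the reads came from, nor how many belong to the overlapping antisense gene Gm11789. Its pooled log2 change of -1.40 ± 0.13 (SE; limma adjusted p = 0.00162) is the average of -3.09 in the antibody-labelled group and 0.28 in the knockout-labelled group, and the adjusted p was 0.744 when the 6 interrupted libraries were fitted as 1 group. Whether the labels of the 2 groups were exchanged cannot be settled from these files, and every pooled value below holds either way. A statement on a single interrupted group refers to its label only.

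The libraries held an estimated 10.99 to 30.1 M (mega) reads assigned to genes, and the one with the fewest, knockout-labelled library 1, stood apart from the other 8 on the first principal component (84.32, against -19.24 to 1.71, with 22.9% of the variance). The second component (16.3%) ordered the groups, with wild type at 28.94 to 34.76, knockout-labelled at -2.39 to 2.62 and antibody-labelled at -36.18 to -27.01. Hepatocyte markers summed to between 1792440 and 2997970 normalized counts in every library, as in liver tissue. No member of 11 marker lists (92 genes tested, hepatocytes included) passed the pooled test. Small shifts of whole lists were seen all the same: 11 of 12 markers each of Kupffer cells, sinusoidal endothelial cells and stellate cells had a positive pooled value, with medians of 0.14, 0.12 and 0.16 on the log2 scale, beside -0.001 over all genes. Kupffer cell markers summed to 28706 to 37513 in wild type, 29650 to 43776 in the knockout-labelled and 33420 to 37096 in the antibody-labelled libraries. Endothelial markers summed to 30225 to 33783, 32196 to 37291 and 34665 to 38120 in the same order, and stellate markers to 22695 to 27152, 26118 to 28161 and 26485 to 28422. The part of these cells in the results was not tested. Of the 14 lymphocyte markers 9 had a negative value (median -0.21), and 7 of the 10 acinar and 7 of the 8 muscle markers were at the floor of the table in all 9 libraries.

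Of 20029 genes tested, 185 (0.924%) differed between the pooled interrupted arm and wild type at an adjusted p under 0.05. There were 104 genes that fell (0.519% of those tested) and 81 that rose (0.404%), and the change was at least 2-fold for 39 and 41 of them. In tissue RNA, a lower value can mean fewer cells of a type or less RNA per cell, and the 2 cannot be told apart. In 156 of the 185 genes the 6 interrupted libraries lay wholly outside the range of the 3 wild-type libraries, a separation seen in 1092 of all 20029 genes (5.45%). The other 29 overlapped in at least 1 library. Since the 185 were selected on these same values, the separation is a description and no further support. By type, 173 were protein-coding, 6 were long intergenic RNAs, 4 were antisense RNAs and 2 were pseudogenes. The count moved with single libraries. It was 55 without wild-type library 1, 60 without wild-type library 2, 92 without antibody-labelled library 2 and 114 without antibody-labelled library 3, and it was 134 without knockout-labelled library 1. With the 6 interrupted libraries as 1 group, so that the difference between the 2 ways of interruption counted as spread, 51 genes passed, all of them among the 185. Without the mean-variance trend and robust estimation 6 passed (Got1, Aqp8, Slc13a2, Gcgr, Pcdh20 and 4933437F05Rik). Each of the 185 kept its direction in all 19 other settings, and the number of those settings in which a gene passed is given below as its tally.

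**Figure D1:**
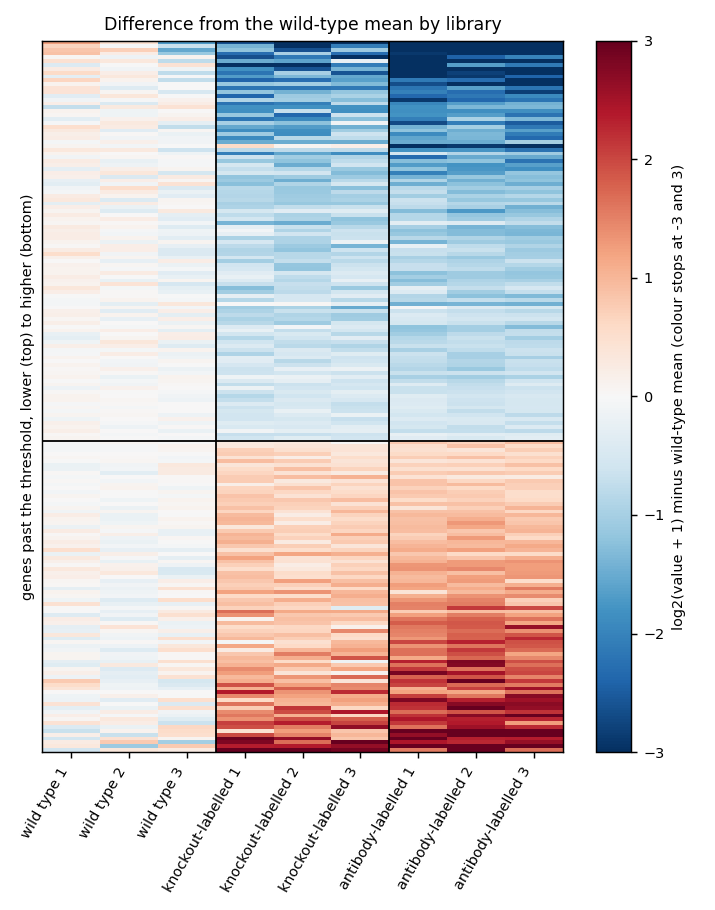
Each row is 1 of the 185 genes past the threshold and each column is 1 library; colour is log2(normalized count + 1) minus the mean of the 3 wild-type libraries, with the scale stopping at 3 on either side. Wild-type columns stay near 0, the 3 antibody-labelled columns are mostly the darkest, and the 3 knockout-labelled columns are paler in 134 of the 185 rows, going by group means.

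Enzymes that break down amino acids made the largest group of listed genes that fell. Of 56 tested members of the amino acid catabolism list, 11 fell and none rose (19.6%, beside 0.924% of all genes), and the median over the 56 was -0.17, beside -0.001 over all genes. They included Got1, Oat, Gls2, Sdsl, Cth, Cbs, Mat1a, Agxt, Hgd and Aass, and 45 members did not pass. Against wild type, the list median was -0.07 in the knockout-labelled and -0.25 in the antibody-labelled group. The count was 3 without wild-type library 1, 4 without wild-type library 2, 7 without antibody-labelled library 2 and 10 without knockout-labelled library 1. It was 5 with no filter on low values, 1 without the trend and robust estimation, and 0 with the 6 interrupted libraries as 1 group.

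Got1, the cytosolic aspartate aminotransferase (chr19:43574242-43599095, minus strand), had, with Mt2, the largest fall among the genes named by size. Its normalized counts were 32435, 25190.4 and 24708 in wild type, 7698, 4513 and 10407 in the knockout-labelled and 3163, 3438 and 2583 in the antibody-labelled libraries. All 6 interrupted libraries lay below the lowest wild-type library, with the antibody-labelled ones lowest. The pooled log2 change was -2.55 ± 0.23 (adjusted p = 0.00295), and the tally was 18 of 19. Without the log scale, the mean normalized count of Got1 was 5.18-fold lower in the interrupted arm. Oat, the mitochondrial ornithine aminotransferase (chr7:139749158-139768081, minus strand), was at 94953, 74569 and 51026 in wild type, 31412, 26745 and 32087 in the knockout-labelled and 17434, 14690.0 and 10065 in the antibody-labelled libraries. Again no interrupted library reached the wild-type range. Its log2 change was -1.81 ± 0.20 (adjusted p = 0.00615). Gls2, the liver-type glutaminase that frees ammonia from glutamine (chr10:127631513-127647060, plus strand), was at 25904, 23214 and 19812 in wild type, 10881, 6269 and 14916 in the knockout-labelled and 6185, 8952 and 5303 in the antibody-labelled libraries. The interrupted and wild-type arms did not overlap, and the log2 change was -1.48 ± 0.26 (adjusted p = 0.0354). Naming by size took only genes whose arms did not overlap. For Got1, Oat and Gls2 the separation is therefore a description and no further support. Gls2 passed in 9 of 19 settings and lost its call without any 1 of 6 libraries, namely each wild-type library, knockout-labelled library 1 and antibody-labelled libraries 1 and 3.

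The other enzymes of the list fell by less. Sdsl, a serine dehydratase-like enzyme, changed by -1.32 ± 0.17 on the log2 scale (adjusted p = 0.00643), from 2433 ± 141 (SD, n = 3) to 1037 ± 380.1 (SD, n = 6) normalized counts. Cth, which cleaves cystathionine in the last step of cysteine formation, went from 36888 ± 4395 (SD, n = 3) to 16229 ± 6982 (SD, n = 6), a change of -1.28. Cbs, which makes the cystathionine, and Mat1a, which makes S-adenosylmethionine from methionine, stand earlier on this route and changed by -0.74 and -0.60. Hgd, an enzyme of tyrosine breakdown, changed by -0.91. Agxt, an aminotransferase of glyoxylate and alanine, and Aass, the first enzyme of lysine breakdown, changed by -0.79 and -0.74. In Cbs, Mat1a, Hgd and Agxt at least 1 interrupted library lay inside the wild-type range. Sds, the serine dehydratase, had values of 13722 ± 1109 (SD, n = 3) in wild type and 4836 ± 2402 (SD, n = 6) in the interrupted arm and did not pass (-1.63 ± 0.32, adjusted p = 0.0669). Its antisense RNA Gm15690 passed at -1.63 (adjusted p = 0.0483, tally 7 of 19), and since the library kit does not mark strand, reads of the 2 cannot be told apart.

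Nitrogen transport and disposal showed 5 further falls. Of 32 tested amino acid transporters 3 fell and none rose (9.38%, median -0.10), and of 8 urea cycle genes 2 fell and none rose (25%, median -0.28), beside 0.519% of all genes that fell. In the knockout-labelled and antibody-labelled groups, the medians were -0.17 and -0.12 for the transporters. For the urea cycle they were -0.08 and -0.41. Slc7a2, a cationic amino acid transporter that carries arginine, lysine and ornithine (chr8:41947750-42007662, plus strand), was at 78666, 52505 and 85537 in wild type, 31208, 33497 and 33250.0 in the knockout-labelled and 26884, 32022 and 29175 in the antibody-labelled libraries. The 6 interrupted libraries lay close together and all below wild type. The log2 change was -1.19 ± 0.14 (adjusted p = 0.00643), and the difference between the interrupted groups was -0.16 (95% interval -0.52 to 0.21). Slc25a15, the mitochondrial ornithine carrier of the urea cycle, was at 30174, 25539 and 21048 in wild type, 15017, 13028 and 16035 in the knockout-labelled and 13895, 11386 and 11581 in the antibody-labelled libraries. It too was separated from wild type in every library, with a log2 change of -0.92 ± 0.13 (adjusted p = 0.00722). Slc7a2 and Slc25a15 each passed in 18 of 19 settings. Ass1, argininosuccinate synthase, changed by -0.86 (adjusted p = 0.0233), and Gm5424, a locus of similar sequence, by -0.79, so that the split of reads between them is uncertain. Slc25a22, a mitochondrial glutamate carrier, changed by -0.88, and Slc3a1, a subunit of the transporter of cystine and dibasic amino acids, by -0.99. Cps1, the entry enzyme of the urea cycle, did not pass (-0.17 ± 0.17, adjusted p = 0.774), and its knockout-labelled and antibody-labelled values were 0.09 and -0.43. Glul, glutamine synthetase, was at 42561 ± 2649.6 (SD, n = 3) in wild type and 47304 ± 3819 (SD, n = 6) in the interrupted arm (0.15 ± 0.10, adjusted p = 0.637). Slc38a5, an amino acid transporter known from alpha cells, was near the floor of 1 in every library (highest value 8.60). Urea cycle calls dropped to 1 without any 1 wild-type library or without knockout-labelled library 1, where Ass1 no longer passed.

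**Figure D2:**
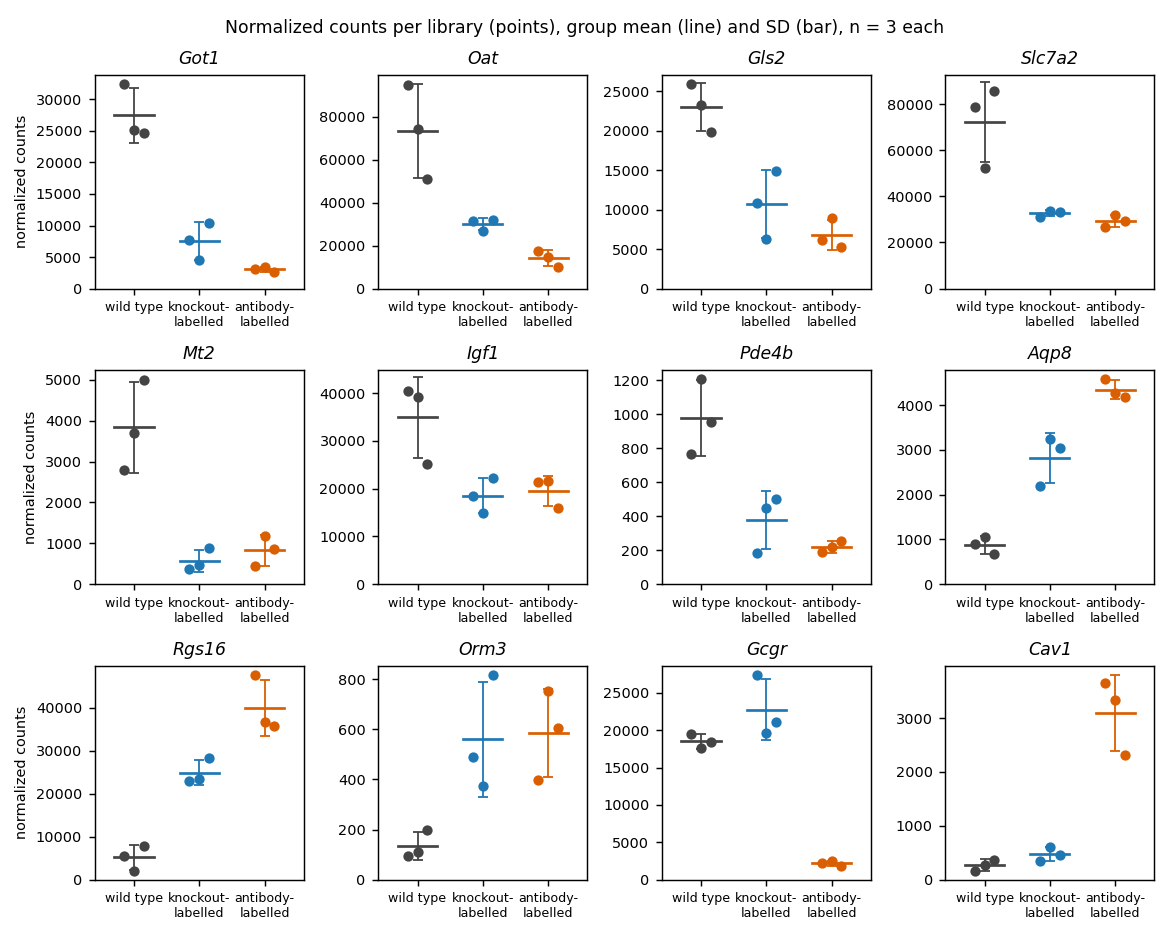
Normalized counts in each of the 9 libraries for 12 genes, with a horizontal bar at each group mean (n = 3). Got1, Oat, Gls2, Slc7a2, Mt2, Igf1 and Pde4b are lower, and Aqp8, Rgs16 and Orm3 higher, in all 6 interrupted libraries than in any wild-type library, whereas Gcgr and Cav1 set the antibody-labelled libraries apart from the other 6. Apart from Slc7a2 and Igf1, the genes with separate arms were named by size, which required arms that did not overlap.

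Of 24 tested genes of the receptor and kinase cascade, Gcgr was the single one past the threshold (4.17%, beside 0.924% of all genes, with a median of -0.08). Of 20 tested cAMP and CREB target genes 1 fell and none rose (5%), with a median of -0.48 and 4 of 20 values above 0, beside 49.9% of all genes. By limma, 9 of the 20 were at an unadjusted p under 0.05, beside 11.5% of all genes. The member that fell was Pde4b, a phosphodiesterase that hydrolyses cAMP (chr4:101760148-102279864, plus strand). It was at 764, 1210.1 and 958 normalized counts in wild type, 185, 449 and 500.0 in the knockout-labelled and 187, 217 and 257 in the antibody-labelled libraries. The 2 arms did not overlap, which naming by size required, and the log2 change was -1.80 ± 0.29 (adjusted p = 0.0209). It passed in 12 of 19 settings and lost the call without any 1 wild-type library or antibody-labelled library 2. Pde3b, another phosphodiesterase, fell by 0.53, and Kiss1, which encodes the peptide kisspeptin, fell by 2.48. Fosb, an immediate early gene that cAMP can induce, went the other way and rose by 2.80 (adjusted p = 0.00935), from 7.27 ± 2.54 (SD, n = 3) to 64.4 ± 36.5 (SD, n = 6) normalized counts. All 3 were picked after their values were seen. Kiss1 overlaps Golt1a on the same strand, which fell by 0.48, so part of its reads may be shared, and Kiss1 lost its call without wild-type library 1 or 2. The mean of Kiss1 over all libraries was low, 34.4 normalized counts, beside 1471 for Golt1a and a median of 293 over tested genes. The gluconeogenic enzymes Pck1 and G6pc did not pass. Pck1 was at 188657 ± 47734 (SD, n = 3) in wild type and 143390.0 ± 63349 (SD, n = 6) in the interrupted arm (-0.46 ± 0.26, adjusted p = 0.545), and G6pc at 25785 ± 5536 (SD, n = 3) and 18945 ± 5456 (SD, n = 6) (-0.49 ± 0.28, adjusted p = 0.580). None of the 15 tested gluconeogenesis genes passed (5 at an unadjusted p under 0.05, beside 11.5% of all genes, median -0.05).

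Because CREB acts at promoters, the window from 250 bases before to 50 bases after each start (RefSeq, GRCm38.p6) was searched for the full palindromic element TGACGTCA and for the shorter site TGACG on either strand (CGTCA when read on the gene's own strand); every full element holds the shorter site. The full element was found in 4 of the 71 genes that fell and had a promoter entry (5.63%), in 0 of 60 that rose (which allows a share of up to 5%), in 402 of 12728 tested genes that did not pass (3.16%) and in 549 of all 27025 promoters (2.03%). The shorter site stood in 23 of the 71 (32.4%), 13 of the 60 (21.7%), 4063 of the 12728 (31.9%) and 6228 of the 27025 (23.0%). Its share in genes that fell was near that of genes that did not pass. A match of letters is a description and not evidence of binding. The 4 elements are shown because they are the ones among genes that fell, each in 60 bases, 5′ to 3′ on the gene's strand, with the element in capitals and in GRCm38.p6 coordinates.
Zap70 (chr1:36761738-36761797, plus strand): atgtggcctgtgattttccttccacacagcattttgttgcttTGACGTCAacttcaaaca
Pogk (chr1:166409860-166409919, minus strand): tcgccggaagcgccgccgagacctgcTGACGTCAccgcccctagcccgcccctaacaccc
Epb4.1 (chr4:132075504-132075563, minus strand): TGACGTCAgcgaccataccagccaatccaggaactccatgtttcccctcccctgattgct
Wsb1 (chr11:79254700-79254759, minus strand): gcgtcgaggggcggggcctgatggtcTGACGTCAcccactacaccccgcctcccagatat
The element began 18, 65, 250 and 38 bases before the start of Zap70, Pogk, Epb4.1 and Wsb1. Their pooled log2 changes were -2.56, -0.75, -0.62 and -0.97, with adjusted p of 0.0285, 0.0447, 0.00643 and 0.00643 by limma. Zap70, a tyrosine kinase best known from T cells, stood at 879, 790.5 and 374 in wild type and 226, 214 and 551 in the knockout-labelled libraries, and at 62.1, 41.1 and 21.8 in the antibody-labelled ones, so that wild-type library 3 lay inside the knockout-labelled range. The 14 lymphocyte markers together summed to between 383 and 909 normalized counts in the 9 libraries.

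Both metallothioneins fell, and Mt2 had the largest fall among the genes picked by size. Mt2, a small protein that binds zinc and copper (chr8:96696518-96697467, plus strand), was at 2803, 3705 and 5006 in wild type, 362, 461 and 880.0 in the knockout-labelled and 434, 1184 and 856 in the antibody-labelled libraries. No interrupted library came within 2-fold of the lowest wild-type library, although naming by size already required arms that did not overlap. The log2 change was -2.56 ± 0.39 (adjusted p = 0.0289). Mt1, its neighbour on chromosome 8, went from 6855 ± 1228 (SD, n = 3) to 2328 ± 791 (SD, n = 6), a log2 change of -1.61 ± 0.26 (adjusted p = 0.0288). The 2 genes are similar in sequence, so the split of reads between them is uncertain. In the single comparisons, which share the 3 wild-type libraries and are therefore set side by side only, Mt2 had adjusted p of 0.0663 (knockout-labelled, -2.82) and 0.0582 (antibody-labelled, -2.29), and it is a gene that passes when the arms are pooled. The calls on Mt1 and Mt2 held in 11 of 19 settings, and were lost without any 1 wild-type library, knockout-labelled library 1 or 2, or antibody-labelled library 3. In the acute phase list that holds them, 2 of 22 tested members fell and 1 rose (13.6%, beside 0.924% of all genes, median -0.11). This count of 3 became 0 without wild-type library 1 or 2 and 1 without knockout-labelled library 1 or antibody-labelled library 3. The one that rose was Orm3, an orosomucoid (chr4:63017196-63020545, plus strand), at 95.4, 111 and 198 in wild type, 489, 374 and 817 in the knockout-labelled and 399.5, 751 and 606 in the antibody-labelled libraries. Its 6 interrupted libraries were all above wild type, which naming by size required. Its log2 change was 2.09 ± 0.30 (adjusted p = 0.0120), and it belongs to a family of close paralogs.

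The gene for the growth factor Igf1 passed narrowly. It was at 40368, 39253 and 25158 in wild type, 18370.4, 14922 and 22288 in the knockout-labelled and 21290.2, 21519.6 and 15987 in the antibody-labelled libraries. The arms did not overlap, and the log2 change was -0.86 ± 0.18 (adjusted p = 0.0489), but it passed in 6 of 19 settings and lost the call without any library other than wild-type library 3 or knockout-labelled library 3. None of the other 13 growth hormone axis genes passed (7.14% of the list with Igf1, beside 0.924% of all genes, list median -0.07). Ghr, the growth hormone receptor, had a value of -0.36. Lifr, a receptor subunit for leukaemia inhibitory factor, was at 9235, 14311 and 7359 in wild type and between 4143 and 5671 in the 6 interrupted libraries. Its mean was 2.07-fold lower in the interrupted arm (adjusted p = 0.0272, tally 11 of 19), and it was among the 5 with the smallest difference between interrupted groups, of the genes with at least 2-fold change and a higher arm at or above the median level (0.12, 95% interval -0.33 to 0.58). Nr5a2, a nuclear receptor of the liver picked after its value was seen, fell by 0.54 (adjusted p = 0.0423).

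Among carbohydrate genes 2 of 29 tested members of the glycolysis and glycogen list rose and 1 fell (median 0.11). That is 10.3% of the list, beside 0.924% of all genes past the threshold. Gbe1, the glycogen branching enzyme, rose from 5365 ± 463 (SD, n = 3) to 9696 ± 1699 (SD, n = 6) normalized counts (0.84 ± 0.11, adjusted p = 0.00643). Pklr, the liver pyruvate kinase, rose from 5044 ± 1333 (SD, n = 3) to 9731 ± 3163 (SD, n = 6) (0.92 ± 0.15, adjusted p = 0.0171), with 0.49 in the knockout-labelled and 1.35 in the antibody-labelled group. Pfkfb2, a bifunctional enzyme that sets the level of fructose 2,6-bisphosphate, fell from 3417 ± 565 (SD, n = 3) to 1921 ± 186 (SD, n = 6) (-0.82 ± 0.12, adjusted p = 0.00935). All 3 separated the 6 interrupted libraries from wild type, and Pklr and Pfkfb2 lost their calls without wild-type library 2 and 1, respectively. In fatty acid synthesis, the desaturases Fads1 (-0.54) and Fads2 (-0.91) fell and none of the 19 tested members rose (10.5% past the threshold, median 0.09). Neither passed without wild-type library 1 or 2 or antibody-labelled library 2 or 3. Cholesterol synthesis had the highest median of the functional lists, 0.50 with 21 of 25 values above 0, but no member passed by limma. Of the 25, 13 were at an unadjusted p under 0.05, to be read, like the counts of this kind below, beside 11.5% of all genes. Without antibody-labelled library 2, the sample with the lowest of that group for Fdps, 7 members passed, and without antibody-labelled library 1 it was 1. With no filter on low values 1 passed, and with a mean of at least 50 also 1. The list median was 0.15 in the knockout-labelled and 0.75 in the antibody-labelled group. Its nearest member, Fdps, went from 337 ± 75.3 (SD, n = 3) to 865 ± 451 (SD, n = 6) (1.24 ± 0.26, adjusted p = 0.0632). No member passed in fatty acid oxidation and ketogenesis (29 tested, median -0.06, 5 at an unadjusted p under 0.05), bile acid synthesis and transport (20, -0.07, 6) or the integrated stress response (25, 0.26, 10), although 2 members of the last passed without wild-type library 2 or 3, and 1 of the first without knockout-labelled library 2 or 3. The fatty acid oxidation median was 0.16 in the knockout-labelled and -0.25 in the antibody-labelled group. Fgf21, a hormone secreted by the liver, had a value of -0.0049 with an SE of 0.57.

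In the remaining lists 1 to 3 members passed, to be read beside 0.924% of all genes. Bhlhe40, a repressor of the circadian clock, rose by 0.93 ± 0.13 (adjusted p = 0.00643) and was the 1 call among 19 clock genes (median -0.13); the neighbouring 0610040F04Rik rose by 0.90, and reads may be shared. Gstm1, a glutathione transferase with close paralogs, rose by 0.84 and Ugt2b1, a glucuronosyltransferase, fell by 0.86 among 33 xenobiotic genes (median 0.05), with tallies of 9 and 7 of 19. Nnmt, which methylates nicotinamide, was at 5869, 5396 and 1141 in wild type, 1422, 537 and 1543 in the knockout-labelled and 62.1, 30.2 and 59.4 in the antibody-labelled libraries. The antibody-labelled libraries were far below the rest, while wild-type library 3 lay within the knockout-labelled range. The pooled value was -3.86 ± 0.63 (adjusted p = 0.0489), it passed in 6 of 19 settings, and leaving out any 1 library other than wild-type library 3 ended the call. It was the 1 call among 13 nicotinamide and NAD genes (median -0.06). Of 17 pericentral genes 2 fell (Oat, and Rhbg, an ammonium transporter, at -0.76), and of 16 periportal genes 3 fell (Sdsl, Ass1 and Gls2), with medians of -0.42 and -0.18 and no member of either that rose. The periportal count was 1 without any 1 wild-type library or knockout-labelled library 1 and 5 without knockout-labelled library 2. The pericentral count was 1 without any 1 wild-type library or antibody-labelled library 2 or 3, and 4 without antibody-labelled library 1. Both xenobiotic calls were lost without any 1 wild-type library or antibody-labelled library 2 or 3.

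**Figure D3:**
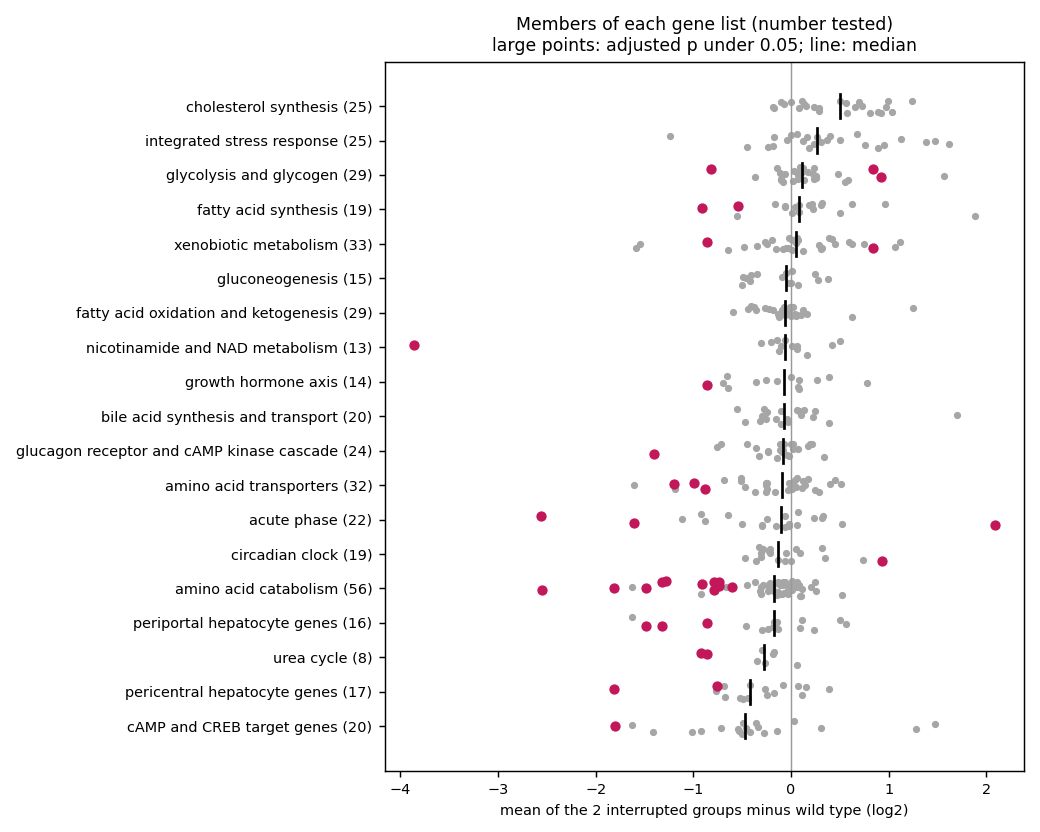
Pooled log2 change of every tested member of the functional lists, 1 list to a row, with the list median as a line and genes past the threshold as large coloured points. Amino acid catabolism holds 11 large points, all below 0, and cholesterol synthesis lies mostly above 0 with no large point.

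Of the 10 largest rises named by size under the same limits on overlap and level as the falls, 9 were in genes outside these lists. The separation of the 10 from wild type was thus fixed by the choice. Rgs16, which speeds the switching off of Gi and Gq proteins (chr1:155587479-155592598, plus strand), was at 5614, 2126 and 7791 in wild type, 23026, 23459 and 28237 in the knockout-labelled and 47580.2, 36772 and 35719.9 in the antibody-labelled libraries. The 3 groups formed separate ranges in that order. The log2 change was 2.79 ± 0.36 (adjusted p = 0.0163), and the call was lost without wild-type library 1. Aqp8, a water channel of hepatocytes and bile canaliculi (chr7:130605808-130611517, plus strand), was at 888, 1060.3 and 663 in wild type, 2189.8, 3251 and 3035 in the knockout-labelled and 4588, 4279.9 and 4178 in the antibody-labelled libraries. Here too the 3 groups were fully ordered. Its log2 change was 2.02 ± 0.15 (adjusted p = 0.000426), the smallest p of the comparison, and it was the single gene that passed in all 19 settings. Ly6d, a small membrane-anchored protein of the Ly6 family, was at 129.9, 113 and 61.6 in wild type, 404, 496 and 398 in the knockout-labelled and 425, 504 and 230.3 in the antibody-labelled libraries. Both interrupted groups lay above wild type, and antibody-labelled library 3 was the lowest of the 6. The log2 change was 2.03 ± 0.27 (adjusted p = 0.00643). Rad51l1 (Rad51b), a recombination protein, rose by 1.70, Eif4e3.1 by 1.52, Hsd17b6, a steroid and retinoid dehydrogenase, by 1.27, Fam198a by 1.66, and the long intergenic RNA Gm15408 by 1.38. Eif4e3.1 overlaps the separate entry Eif4e3 on the same strand, which did not pass (-0.58), so the split of reads between them is uncertain. Txnip, a thioredoxin-binding protein picked after its value was seen, rose by 0.85 (adjusted p = 0.00643).

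Of the 10 largest falls named by size, which needed arms that did not overlap and a higher arm at or above the median level, 3 besides Gm15690 were outside the lists. The antisense RNA 1300015D01Rik (Ctcflos) went from 1362 ± 106 (SD, n = 3) to 378 ± 257 (SD, n = 6) (-2.23 ± 0.24, adjusted p = 0.00500), and Ctcfl, which it overlaps on the other strand, changed by -1.46. Without strand, reads of the 2 cannot be told apart. Neb, which encodes the muscle protein nebulin, was at 334, 215 and 335 in wild type and between 61.6 and 166 in the 6 interrupted libraries (-1.68 ± 0.30, adjusted p = 0.0239). The skeletal muscle markers were near the floor in every library, summing to between 29.2 and 48.2 over 8 genes. Ncald, a neuronal calcium sensor, was at 1469, 1243 and 619.6 in wild type and between 236 and 514 in the interrupted arm (-1.54 ± 0.29, adjusted p = 0.0472, tally 11 of 19).

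The interrupted groups were then set against each other, a contrast that uses none of the wild-type libraries for its difference. Over all genes, 56 (0.28%) differed between them at an adjusted p under 0.05, 38 higher (0.19%) and 18 lower (0.0899%) in the antibody-labelled group. That count was 14 and 17 without wild-type library 1 and 2, 6 without knockout-labelled library 1, 1 without antibody-labelled library 2, 4 without antibody-labelled library 1 and 13 without antibody-labelled library 3. Among the 185 genes, 12 passed: Gcgr, Cav1, 1300015D01Rik, Pcp4l1, Fabp5, Tes, Aass, Mat1a, Ugt1a9, Epb4.1l1, 4930485B16Rik and F830016B08Rik. Ugt1a9 shares exons with its gene family, so its value is uncertain. Cav1, a coat protein of caveolae, had the largest difference after Gcgr. It was at 159, 274 and 372 in wild type, 349.8, 607 and 454 in the knockout-labelled and 3644, 3329.7 and 2309.6 in the antibody-labelled libraries. The knockout-labelled and wild-type ranges overlapped, while the antibody-labelled libraries were all above them, by 2.72 over the knockout-labelled group on the log2 scale (95% interval 2.03 to 3.42, adjusted p = 0.0265). Pcp4l1 was graded instead, at 254, 221 and 396 in wild type, 427, 584 and 662 in the knockout-labelled and 1975, 1421 and 1643 in the antibody-labelled libraries. Its 3 groups did not overlap, and the difference between interrupted groups was 1.60 (95% interval 1.11 to 2.09, adjusted p = 0.0267). Fabp5, a fatty acid binding protein, was at 132 ± 35.9 (SD, n = 3) in wild type, 177 ± 30.8 (SD, n = 3) in the knockout-labelled and 545 ± 215 (SD, n = 3) in the antibody-labelled group. F830016B08Rik was the 1 of the 12 with the larger change in the knockout-labelled group (-1.34, against -0.48).

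For the other 173 genes no difference between the interrupted groups passed the threshold, which does not show that they moved alike. The 95% interval of the difference stayed within 1 log2 unit of 0 for 109 of the 185 and reached past it for 76. Its direction was uneven. In 134 of the 185 (72.4%) the antibody-labelled mean lay beyond the knockout-labelled mean in the direction of the pooled change, a position found in 8794 of all 20029 genes (43.9%). The share was 79.0% (64 of 81) among genes that rose and 67.3% (70 of 104) among those that fell. Of the 173, Nnmt had the largest difference (-4.43, adjusted p = 0.0679). Neb, Ncald, Orm3, Gm15408 and Lifr, the 5 with the smallest differences among genes of at least 2-fold change whose higher arm reached the median level of tested genes, ranged from 0.01 for Neb to 0.12 for Lifr. The 95% interval for Neb ran from -0.74 to 0.75.

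**Figure D4:**
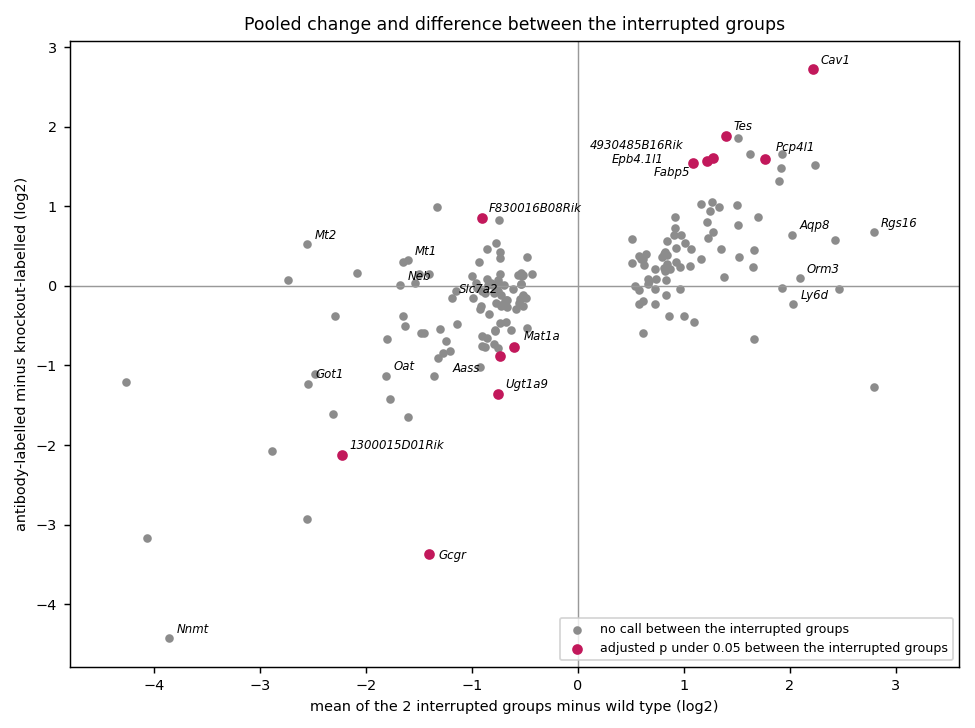
Each point is 1 of the 185 genes, with the pooled log2 change against wild type on the horizontal axis and the log2 difference between the antibody-labelled and knockout-labelled groups on the vertical axis. Points fall mostly in the lower left and upper right, where the antibody-labelled group is farther from wild type, and the 12 genes that differed between the interrupted groups are marked.

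Pooling brought some genes past the threshold that neither group reached alone. The knockout-labelled group differed from wild type in 31 genes (0.155%) and the antibody-labelled group in 268 (1.34%). These comparisons share the wild-type libraries with the pooled one, so a gene in more than 1 list is no independent support. Of the 185 genes, 28 had an adjusted p of 0.05 or more in each single comparison. They include Mt1, Mt2, Igf1, Lifr, Ncald, Fads1 and Ugt2b1, described above, together with Nr5a2, Amh, Btc and Rnase4, picked after their values were seen, and 17 others. In 27 of the 28 the arms did not overlap (Ugt2b1 was the exception), beside 156 of the 185 and 5.45% of all genes. The 28 were selected on these same values, so the separation is a description and no further support. Igf1 had log2 changes of -0.90 (adjusted p = 0.0904) and -0.81 (0.0911) in the knockout-labelled and antibody-labelled groups, and Lifr had -1.07 (0.0666) and -0.94 (0.0540). Amh, the anti-Müllerian hormone, sat at the floor of 1 in all 3 wild-type libraries and between 3.46 and 9.49 in the interrupted arm, which is a few reads per library, so its call rests on very low values.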

How the data were processed

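Liver RNA was sequenced as poly(A)-selected, non-strand-marking libraries, per the labels' protocols. Per the submitters' processing notes, FastQC, TopHat2 2.0 and SAMtools were used with mouse build mm9; the sources used here do not name the counting and scaling tools. The authors deposited a normalized signal per Ensembl gene and library, called normalized counts here, with a floor of 1 (37583 rows, library sums 42.4 to 52.1 M, where M is mega). Whole reads could not be recovered, since 40.8% to 45.8% of values under 10 reads were whole within 0.01 read, so count models were not run. Depth, 10.99 to 30.1 M reads, was estimated from the commonest value above the floor, taken as 1 read. The labels state 50 M reads for every library.

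From these, log2(value + 1) was fitted for genes above 1 in at least 3 libraries (20029, median mean value 293) with limma 3.58.1 in R 4.3.3: 3 group means over 9 libraries, eBayes with trend and robust estimation, two-sided tests, Benjamini-Hochberg adjustment over all tested genes, and a threshold of 0.05. The pooled contrast was the mean of both interrupted group means minus wild type. Replicates are separate samples in the labels; p-values measure the spread between these samples only. No batch is labelled. The rule for named genes took Gcgr; the 10 highest and 10 lowest called genes whose arms did not overlap and whose higher arm reached the median level; up to 2 members a list by p; called list members; the 5 largest and 5 smallest differences between interrupted groups; and Glul, Fgf21, G6pc, Pck1, Gls2, Slc7a2, Cps1 and Slc38a5. The comparison, its 19 functional and 11 marker lists (519 symbols, 496 tested) and the naming rule were chosen with earlier results of these data known. The alternatives were other pseudocounts, filters, scalings and variance models, 1 interrupted group, library weights, a replicate block and leaving out each library. The fit was tested on simulated data. Some genes past the threshold are not reported here.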

Additional observations from a re-analysis of the deposited data

Results flagged for a closer look

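Among 60 genes named by rule (called list members beyond the first 2 of a list not included), 3 had 1 interrupted library whose gap to its nearest neighbour, divided by the range of the 6, was above the critical value of 0.625; chance gives about 1 in 20. Antibody-labelled library 3 was low for Ly6d (0.698). Knockout-labelled library 1, the one of least estimated depth, was high for Eif4ebp1 (0.646, with 3973, against 3366 to 3569 in the other 5). Knockout-labelled library 2 was low for Gstm1 (0.643, with 23205, against 33044 to 40212). The gap for Ly6d lay between 230 and 398 normalized counts.

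The effect against wild type differed between the interrupted groups, by the limma contrast of the 2 groups themselves, in 5 of these genes. All 5 had been named for having the largest such differences among genes past the threshold in both contrasts. The naming rule thus fixed in advance that at least 5 would be found. The antibody-labelled minus knockout-labelled log2 difference was -3.37 for Gcgr (adjusted p = 8.37e-07), 2.72 for Cav1 (0.0265), -2.12 for 1300015D01Rik (0.0267), 1.60 for Pcp4l1 (0.0267) and 1.57 for Fabp5 (0.0470). In each of the 5 the antibody-labelled and knockout-labelled libraries did not overlap (n = 3 in each group). Since the 5 were picked on these same values, that is a description and no further support. The share of all genes with such a separation was not counted.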

How the results depend on the processing

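Direction held for all 185 genes in all 19 settings, and 71 of them passed in at least 15. The pooled count of 185 was 140 with a pseudocount of 10, 193 with 0.5, 153 with no filter, 219 with a mean of at least 50, 155 with median-of-ratios scaling and 188 with quantile normalization. It was 6 without trend and robust estimation (2096 at an unadjusted p under 0.05), 51 with 1 interrupted group, 419 with library weights, and 55 to 248 leaving out single libraries; without wild-type library 1, 58.2% of the 55 were higher, against 43.8% of the 185. The antibody-labelled against knockout-labelled count of 56 was 23 with a pseudocount of 10, 102 with a mean of at least 50, 29 with median-of-ratios scaling, 1 without trend and robust estimation, 19 with library weights and 1 to 82 leaving out single libraries. The knockout-labelled against wild-type count of 31 was 65 with no filter, 90 with a mean of at least 50, 0 by limma without trend and robust estimation (2402 at an unadjusted p under 0.05), and 4 to 145 leaving out single libraries. The antibody-labelled against wild-type count of 268 was 71 without trend and robust estimation, 666 with library weights, and 105 to 290 leaving out single libraries. Fgf21 turned positive, without passing, when 1 library was left out: 0.33 on dropping wild-type library 2, 0.03 and 0.32 on dropping library 1 or 3 of the knockout-labelled group, and 0.11 on dropping antibody-labelled library 2, in a range of -0.36 to 0.33. Apart from what each construction fixes (fewer libraries, fewer genes or more spread), the cause was not tested.

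The labels number the samples 1 to 3 in each group, but same-numbered samples did not deviate together (r between -0.136 and 0.126, against -0.124 to 0.136 for other pairs), so the numbers were not read as pairs. With the replicate number as a block the pooled count was 160 (67 higher, 93 lower, 131 shared with the 185), and the other 3 counts, in the order above, were 45, 38 and 251. Knockout-labelled library 1 had the lowest estimated depth and the lowest weight (0.372), and depth limits genes of low value most: 20 of the 185 had a mean under 50 normalized counts.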
